A study of Homo sapiens with 5 samples.

Results

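The peaks described here came from 1 chromatin immunoprecipitation library, precipitated from U2932 cells with antibody 2, a non-commercial rabbit polyclonal antibody against PRDM11. They were called once with a rabbit IgG precipitate (Sigma) as the control and once with input, chromatin that was not precipitated. The series also held a library for another PRDM11 antibody (antibody 1) and 1 for RNA polymerase II. U2932 is an established human lymphoma cell line, and all 5 libraries came from untreated cells, so that no library differed from another in genotype or treatment. Both antibody 2 lists were taken whole: 465837 peaks against IgG and 486796 against input, together 952633 of the 1150695 peaks in the 6 lists of the series. The class of a peak was set by overlap, 1 bp being enough: found against both controls, against IgG only or against input only. There are no replicate libraries, and no test between conditions was possible. Values in parentheses after a share are its exact Clopper-Pearson 95% interval, computed as if peaks were independent, and reflect counting error alone. The lists hold positions on the human build hg19 without read counts, so the depth behind each peak is unknown, and nothing in them measures whether the antibody bound PRDM11.

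PRDM11 belongs to the PR domain family, whose shared domain resembles the SET domain of histone methyltransferases and whose members are known as regulators of transcription and cell identity. Loss of PRDM11 has been linked to lymphoma driven by MYC. In a peak caller of the kind used here, a position is reported where the precipitate holds more fragments than a control predicts, so the control takes part in every call. An IgG precipitate samples chromatin that sticks without a specific antibody, and input samples the sheared chromatin itself.

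Most antibody 2 peaks were called with either control. The class found against both held 433934 peaks in the IgG list, 93.2% of it (93.1% to 93.2%), and 433795 in the input list, 89.1% of it (89.02% to 89.2%). The IgG-only class held 31903 peaks, 6.85% of its list (6.78% to 6.92%), and covered 4.01 Mb. The input-only class held 53001 peaks, 10.9% of its list (10.80% to 10.98%), and covered 7.28 Mb. Peaks of the class found against both covered 60.8 Mb in the IgG list and 61.1 Mb in the input list, and 60.3 Mb of this was the same sequence.

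Where a peak was found against both controls, its edges were mostly identical. Of 433141 peaks that touched exactly 1 peak of the other list and were touched by no second one, 409892 had the same start and the same end in both lists, a share of 94.6%. The pairs in which both peaks had the minimum width of the lists, 0.123 kb, numbered 328290, and 99.96% of them had identical positions, with a largest offset of 119 bp. The peak called against input was the wider one in 13294 pairs (3.07%), by a median of 37 bp, and the peak called against IgG in 9813 pairs (2.27%), by a median of 31 bp. Splitting was rare: 175 peaks called against IgG touched more than 1 peak of the input list, and 308 peaks called against input touched more than 1 of the IgG list.

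Width separated the classes. The shortest peak measured 0.123 kb in both lists, and in each class the median width equalled this minimum. The share of peaks at the minimum was 77.1% (76.9% to 77.2%) among peaks found against both controls, counted in the IgG list, and 96.5% (96.3% to 96.7%) among IgG-only peaks. Among input-only peaks it was 86.2% (85.9% to 86.5%). These 3 intervals did not overlap, but they treat peaks as independent. The input-only share varied between regions by far more than its interval, as given below. Peaks of 200 bp or wider made up 9.17% of the class found against both, 1.71% of the IgG-only class and 7.51% of the input-only class. The widest IgG-only peak measured 425 bp, against 1277 bp for the widest input-only peak and 1976 bp for the widest peak found against both in the IgG list.

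Part of the input-only class lay in a few bins dense in input peaks. In 18 of the 2902 1-Mb bins with a peak, the input list held at least 3 times as many peaks as the IgG list plus 1. These input-rich bins, which the peak counts themselves define, held 14211 input-only peaks, 26.8% of the class, but 0.375% of the peaks found against both. There, 63.5% (62.7% to 64.3%) of input-only peaks had the minimum width and 20.2% measured 200 bp or more. Peaks of the input list found against both were wider still in these bins, with 33.5% at the minimum and 49.8% of 200 bp or more. Outside these bins 94.5% (94.3% to 94.7%) of input-only peaks had the minimum width and 2.86% measured 200 bp or more. The share at the minimum of these remaining 38790 input-only peaks lay closer to that of the IgG-only class than to that of the peaks found against both. The intervals of the single-control classes still did not overlap, but they reflect counting error alone.

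Seen by width, few wide peaks in the IgG list lacked any overlapping peak in the input list. An overlap of 1 bp with a peak of any width was enough, which a wide peak meets more easily. When both lists kept only peaks of 200 bp or wider, 91.5% of the IgG list was found. Of the 365239 peaks of minimum width in the whole IgG list, 8.43% (8.34% to 8.52%) were missing against input. The share was 0.932% (0.857% to 1.01%) for the 60279 wider peaks under 200 bp, 1.49% (1.37% to 1.62%) for 35614 peaks from 200 bp to under 300 bp and 0.349% for 4014 peaks from 300 bp to under 500 bp. The shares did not fall steadily with width, since that from 200 bp to under 300 bp was above that of the class before it. Among peaks of 500 bp or wider it was 0 of 691, which allows a share of up to 0.434% as 3 counts of the total and 0.532% as the upper bound of the exact interval. In the input list the relation was different: missing against IgG were 12.1% at the minimum width, 5.31% of wider peaks under 200 bp, 7.63% from 200 bp to under 300 bp, 16.2% (15.2% to 17.2%) from 300 bp to under 500 bp and 14.4% (12.3% to 16.8%) at 500 bp or more. Outside the input-rich bins the same shares were 9.93%, 1.70%, 2.84%, 1.53% (1.18% to 1.95%) and 0.393% (0.081% to 1.14%). Of the 143 input-only peaks of 500 bp or wider, 3 lay outside those bins.

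**Figure D1:**
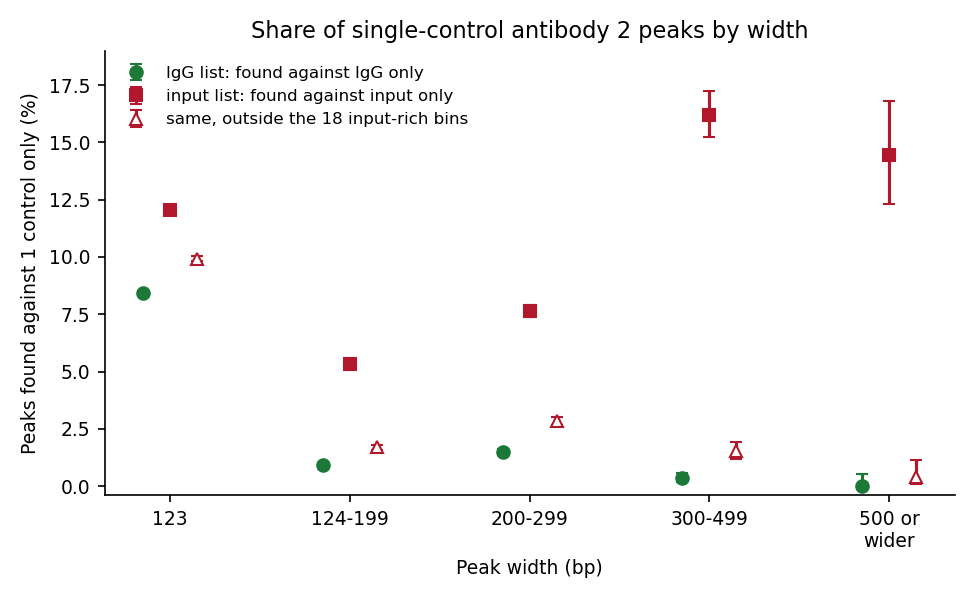
Share of antibody 2 peaks found against 1 control only (vertical axis, percent) by peak width (horizontal axis, bp), with exact 95% binomial intervals over peaks; filled circles are the IgG list, filled squares the input list and open triangles the input list outside the 18 input-rich bins. The wide peaks found against input only (16.2% from 300 bp to under 500 bp) fall to 1.53% once those bins are left out.

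Spacing set the input-only class apart more than the IgG-only class. The gap to the nearest peak of the same list had a median of 1692 bp for peaks found against both controls (quartiles 600 and 3742 bp, IgG list) and 1533 bp for IgG-only peaks (quartiles 529.5 and 3424 bp). For input-only peaks the median gap was 706 bp, with quartiles of 221 and 2000 bp. A neighbour lay within 1 kb of 35.6% (35.5% to 35.8%) of the peaks found against both, 38.2% (37.6% to 38.7%) of IgG-only peaks and 58.4% (58.0% to 58.8%) of input-only peaks. In the input-rich bins the last share was 91.8%, with a median gap of 239 bp. Peaks of the input list found against both were also closely spaced in these bins, with 75.7% and 393 bp. Outside these bins the input-only share was 46.2% (45.7% to 46.7%), with a median gap of 1157 bp. Input-only peaks thus remained more closely spaced there than either other class. The smallest gap was 44 bp in both lists, and 6.58% of IgG-only and 11.6% of input-only peaks had a neighbour within 100 bp.

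**Figure D2:**
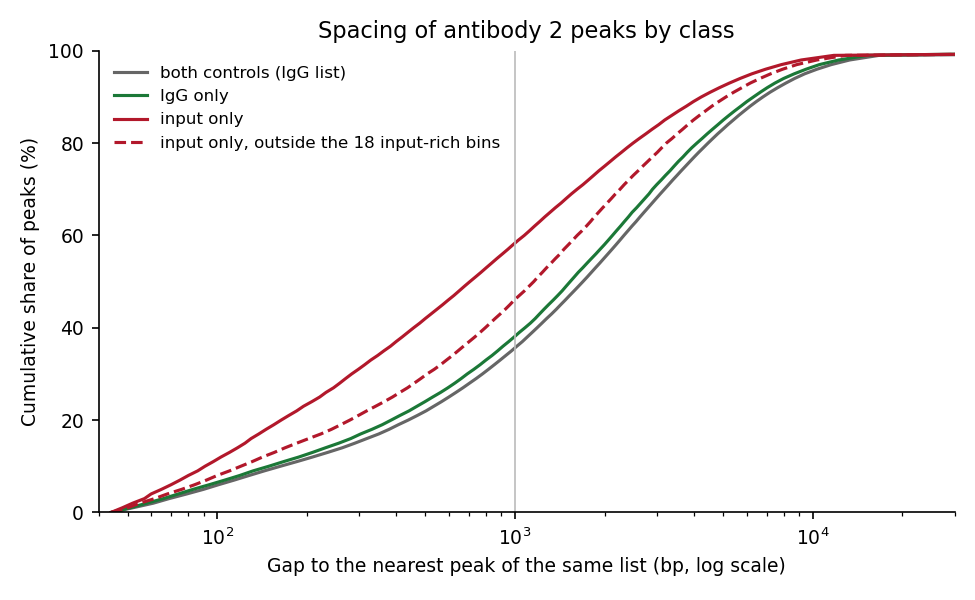
Cumulative share of peaks (vertical axis, percent) by the gap to the nearest peak of the same list (horizontal axis, bp, log scale) for the 3 classes and for input-only peaks outside the 18 input-rich bins; the grey line marks 1000 bp. At that gap the curves stand at 35.6% (both controls), 38.2% (IgG only), 58.4% (input only) and 46.2% (input only, outside those bins).

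Few single-control peaks lay close to a peak of the other list. A copy shifted by less than its width would still overlap and count as found against both. These distances therefore cannot tell how many peaks were shifted copies. An input peak lay within 100 bp of 1742 IgG-only peaks (5.46%), and the nearest one was a median of 1663 bp away. For input-only peaks, an IgG peak lay within 100 bp in 2303 cases (4.35%), at a median distance of 1960 bp. In the input-rich bins this median was 5067 bp and outside them 1450 bp. For comparison, a neighbour of the same list lay within 100 bp of 5.94% of the peaks found against both in the IgG list. In the input list this share was 6.10%.

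IgG-only peaks were mostly scattered singly among peaks found against both, while input-only peaks also came in long series. Of the IgG-only peaks, 25483 (79.9%) had a peak found against both as the next on either side or ended their chromosome's list, and 613 (1.92%) stood in series of 5 or more in a row. Of the input-only peaks, 28084 (53.0%) stood alone, 15399 (29.1%) were in series of 5 or more and 9218 (17.4%) in series of 20 or more. The nearest neighbour was itself IgG-only for 12.3% of IgG-only peaks and for 6.46% of the peaks found against both. In the whole input list it was input-only for 37.98% of input-only peaks and 7.67% of peaks found against both. Outside the input-rich bins it was input-only for 18.1% of input-only peaks and for 7.44% of peaks found against both.

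The longest series lay on few chromosomes. The longest of the input-only class had 157 peaks within 120374 bp of chromosome 18 (57961522 to 58081895), with no peak found against IgG between them. The next had 116 peaks on chromosome 3 (89588865 to 89766872), and the other 3 of the 5 longest, with 115, 114 and 110 peaks, lay on chromosome 18. All 5 of the longest IgG-only series lay on chromosome 2. The first had 41 peaks within 166511 bp (33657618 to 33824128) and the next 35 within 144756 bp (33291031 to 33435786), followed by series of 25 (61420092 to 61545808), 24 (30840039 to 30932457) and 18 (33563293 to 33609025).

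By chromosome, peaks found against both controls were spread the most evenly. Chromosome densities are counts per Mb between the first and last position reached by any of the 6 lists. The class found against both was densest on chromosome 19 (206.7 per Mb) and sparsest on X (79.7 per Mb), a 2.59-fold difference over chromosomes 1 to 22 and X. IgG-only peaks had the same densest and sparsest chromosomes, at 22.9 and 2.04 per Mb, an 11.2-fold difference. Input-only peaks were densest on chromosome 18 (167.2 per Mb) and sparsest on X (1.95 per Mb), an 86.0-fold difference, while their median over the 23 chromosomes was 10.6 per Mb.

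Chromosomes 18 and 3 together held 41.1% of the input-only class and 10.5% of the class found against both. On chromosome 18, 13043 of 24137 input peaks (54.0%) were input-only, and on chromosome 3, 8738 of 43004 (20.3%). Over the other 21 chromosomes the share ran from 2.38% on X to 12.5% on chromosome 11, with a median of 6.62%. At the minimum width were 65.8% of the input-only peaks of chromosome 18 and 84.5% of those of chromosome 3. Over the 23 chromosomes without Y, the IgG-only share ran from 2.49% on X to 11.5% on chromosome 10, with chromosome 11 (10.3%) and chromosome 22 (10.0%) next. Chromosome 1 held most IgG-only peaks (2869, 8.99% of the class), close to its 9.13% of the class found against both. IgG-only peaks outnumbered input-only peaks on 14 of the 23 chromosomes and input-only peaks outnumbered IgG-only peaks on 9. On chromosome Y the IgG list held 122 peaks and the input list 79, and 47 of the 122 (38.5%) were IgG-only. Of these 47, 25 lay in a single bin (13000001 to 14000000), where the lists held 39 and 15 peaks. The 122 peaks were spread over 56.2 Mb, so the Y share rests on few calls. Whether reads were placed correctly there cannot be told from positions alone.

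**Figure D3:**
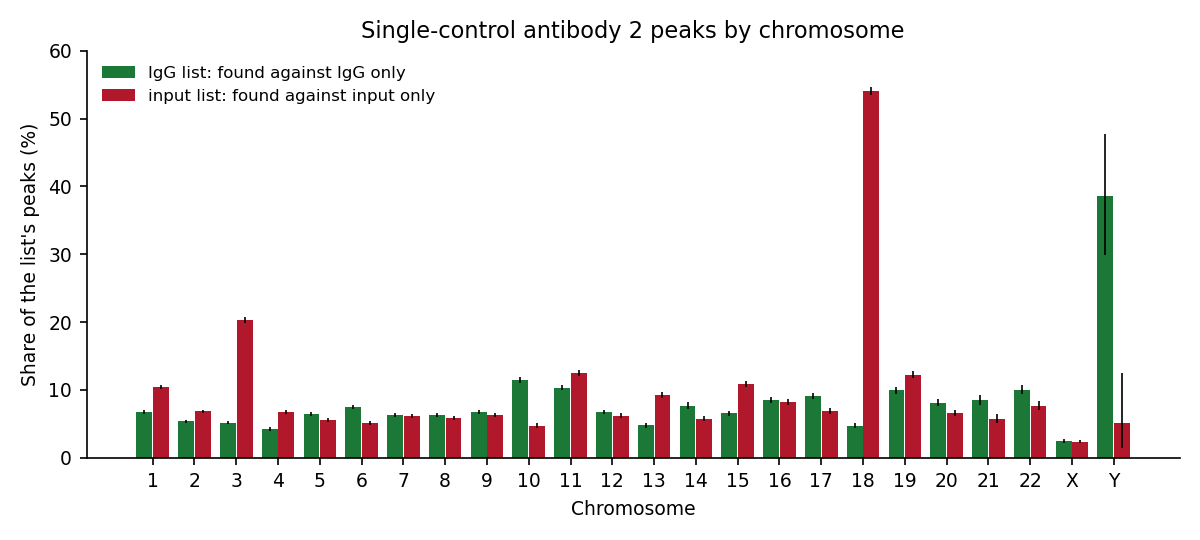
Single-control peaks as a share of the list's peaks on each chromosome (vertical axis, percent); green bars are IgG-only peaks of the IgG list, red bars input-only peaks of the input list, and error bars are exact 95% binomial intervals over peaks. Chromosome 18 (54.0%) and chromosome 3 (20.3%) stand apart in the input list, and chromosome Y in the IgG list (38.5% of 122 peaks).

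In most bins of 1 Mb the lists held similar numbers of peaks, though not always the same peaks. The median per bin was 9 for IgG-only peaks, 9 for input-only peaks and 151 for peaks found against both. The lists differed by at most 10 peaks in 2248 of 2902 bins (77.5%), the input list held more peaks in 1301 bins, the IgG list in 1370, and the median difference was 0. The single-control classes differed in how few bins held them: 50% of the input-only peaks lay in 184 bins, 50% of the IgG-only peaks in 639 and 50% of the peaks found against both in 1055. The 5 bins with the largest excess against input were neighbours on chromosome 18, between 56000001 and 61000000. The bin from 57000001 to 58000000 came first, with 1577 peaks against input and 52 against IgG, and the other 4 held 1293 to 1414 against input and 66 to 90 against IgG. In the first bin the input peaks covered 32.1% of the sequence and the IgG peaks 0.753%.

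The 5 bins with the largest excess against IgG lay on chromosomes 2, 10 and 11. Chromosome 2 at 33000001 to 34000000 held 212 peaks against IgG and 67 against input, and 148 of the 212 were IgG-only. Chromosome 11 at 113000001 to 114000000 held 217 and 91, and chromosome 10 at 73000001 to 74000000 held 195 and 98. The other 2, on chromosome 11 (118000001 to 119000000) and chromosome 10 (72000001 to 73000000), held 308 and 224 peaks and 163 and 83 peaks. The differences in this direction, 80 to 145 peaks per bin, were far smaller than those on chromosome 18, of 1211 to 1525.

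**Figure D4:**
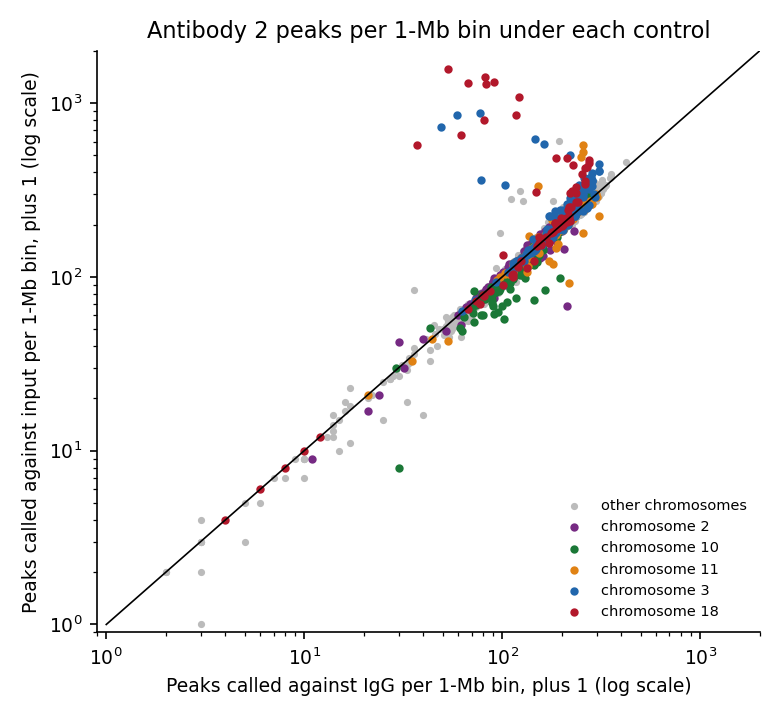
Peaks per 1-Mb bin called against input (vertical axis) and against IgG (horizontal axis), each plus 1 and on a log scale, with 1 point per bin and the line of equal counts. Some bins of chromosomes 18 (red) and 3 (blue) lie far above the line, up to 1577 against 52 peaks on chromosome 18. Bins of chromosome 11 (orange) lie on both sides of it, and some of chromosomes 2 and 10 lie below it, down to 67 against 212 on chromosome 2.

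In bins of 100 kb the single-control classes formed stretches. A stretch was defined as at least 3 bins in which 50% or more of a list's peaks, of at least 5, were single-control, with a gap of 1 bin bridged. By this definition the input-only class had 17 stretches on chromosomes 1, 3, 11, 16 and 18, which spanned 25.3 Mb and held 32.3% of the class. The IgG-only class had 9 stretches on chromosomes 2, 10 and 11, which spanned 6.5 Mb and held 2.45% of the class.

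The longest input-only stretch ran over 9.8 Mb of chromosome 18 (51700001 to 61500000) and alone held 19.4% of the input-only peaks. It held 11049 peaks against input and 813 against IgG. The last 100-kb bin before it held 21 against input and 22 against IgG, and its own first bin 71 and 15. Its last bin held 92 and 4 and the bin after it 2 and 2. Within the stretch the IgG list was sparser than to its left: it held 82.96 peaks per Mb, whereas the 500 kb on the left alone held 82 peaks. The 500 kb to the right were nearly empty in both lists, with 4 peaks against IgG and 3 against input. Input peaks covered 20.3% of the stretch, so part of the overlaps counted there may arise by position alone, and how many do was not tested. Of its input-only peaks 59.7% had the minimum width, the lowest share of the 17 stretches.

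On chromosome 3 a stretch of 3.8 Mb (86700001 to 90500000) held 3051 peaks against input and 274 against IgG. Its first bin had 72 and 8 where the bin before had 14 and 13. On the right both lists nearly ended: its last bin had 63 and 27, and the following 500 kb held 4 and 1. Without an hg19 reference here, whether that flank holds sequence to which reads can be mapped was not tested. A further 2.4 Mb (150700001 to 153100000) held 1490 and 349. The other 14 input-only stretches measured 0.3 to 1.2 Mb. Chromosome 1 at 150200001 to 150600000 had the highest density among them, with 942.5 per Mb in the input list and 102.5 per Mb in the IgG list.

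The IgG-only stretches measured 0.3 to 1.2 Mb (median 0.7 Mb, against 0.8 Mb for the input-only ones), and in them the IgG list held more peaks than the input list. On chromosome 2, 33200001 to 33900000 held 155 peaks against IgG and 22 against input, 61400001 to 61800000 held 78 and 11, and 30700001 to 31000000 held 60 and 13. The flanking 500 kb of the stretch at 61400001 held 111 peaks against IgG and 114 against input on the left and 94 and 93 on the right. Peaks against IgG thus continued at a similar density through the stretch, at 195 per Mb, while those against input dropped to 27.5 per Mb. The stretches on chromosome 10 (70900001 to 72100000, 72700001 to 73800000 and 38800001 to 39200000) held 40 to 81.8 input peaks per Mb. Of the IgG-only peaks in the stretch at 30700001 on chromosome 2, 66.7% had the minimum width, and in the other 8 stretches 76.1% to 91.0%, all below the 96.5% of the whole class.

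Chromosome 11 held stretches of both kinds in turn, some of them mixed. From left to right, input-only stretches came first, at 111100001 to 111500000 (79 peaks against IgG, 115 against input) and 112100001 to 112500000 (66 and 103). IgG-only stretches followed at 113000001 to 114200000 (260 and 107) and 114600001 to 115100000 (104 and 59). Next came an input-only stretch at 115300001 to 116200000 (94 and 343) and an IgG-only stretch at 117300001 to 118000000 (176 and 116). Input-only stretches at 119100001 to 120200000 (286 and 673) and 120400001 to 121600000 (281 and 651) came last. The input-only stretch at 111100001 held 56 input-only and 20 IgG-only peaks, and the IgG-only stretch at 117300001 held 101 IgG-only and 40 input-only peaks. With bridged bins counted, the single-control share of a whole stretch could fall below 50%, as at 111100001 (48.7%) and 114600001 (48.1%).

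**Figure D5:**
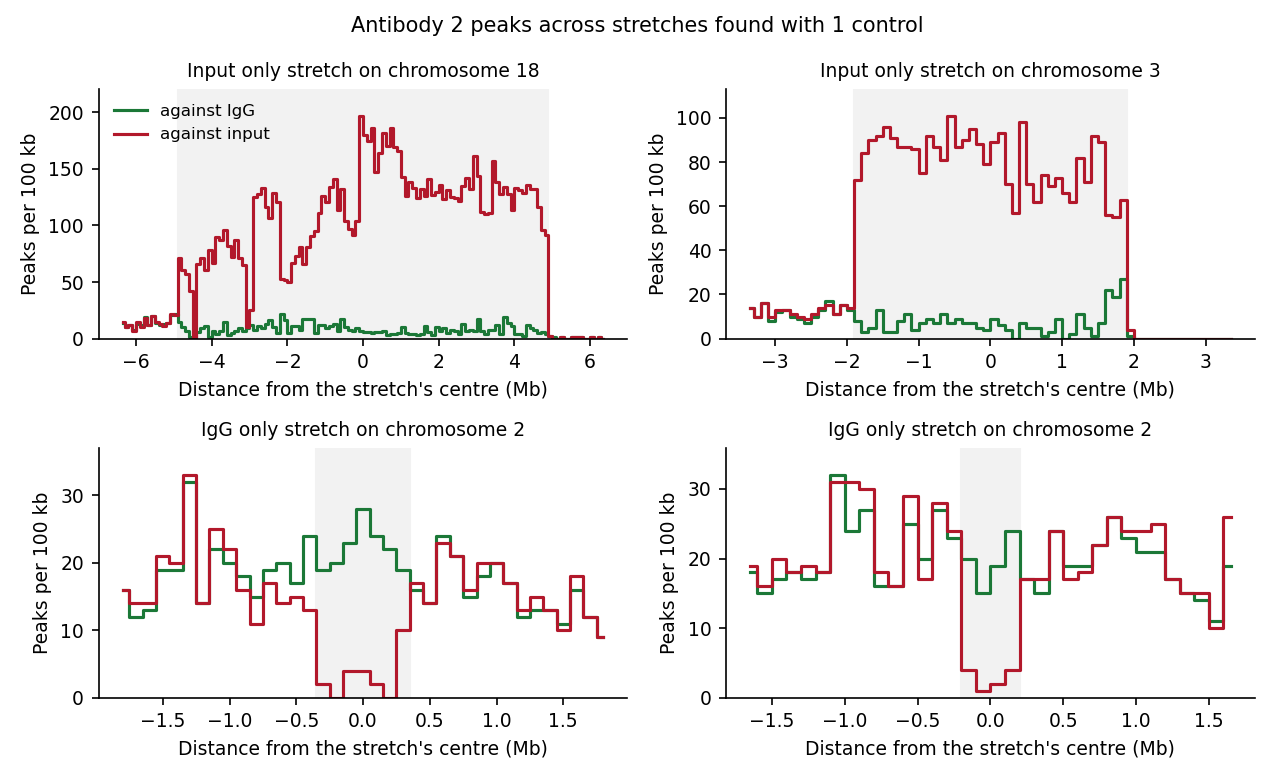
Peaks per 100 kb (vertical axis) against IgG (green) and input (red) by distance from the stretch's centre (horizontal axis, Mb), with the stretch shaded; above are the 2 longest input-only stretches (chromosomes 18 and 3), below the 2 IgG-only stretches with the highest IgG-only share, both on chromosome 2, of 0.7 Mb (left) and 0.4 Mb (right). Input peaks jump at the left edges of the upper stretches, from 21 to 71 per bin on chromosome 18. To the right of these stretches both lists are nearly empty, and on chromosome 3 neither holds a peak in the bins centred from 2.05 to 3.35 Mb. Inside the lower stretches input peaks drop, while peaks against IgG stay within the range of their flanks.

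Peak edges moved in the same regions. Among pairs with 1 peak in each list, 39.5% had identical ends in the input-rich bins, and the input peak was the wider one in 60.2% of the 1577 pairs, by a median of 110 bp, and the IgG peak in 0.317%. In 20 bins where at least 30% of the IgG peaks, and at least 20 peaks, were IgG-only, 80.1% of 1634 pairs had identical ends. There the IgG peak was the wider one in 14.4% and the input peak in 5.08%. In all other bins 94.9% of 429930 pairs had identical ends, the input peak was wider in 2.85% and the IgG peak in 2.23%.

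The libraries for antibody 1 and RNA polymerase II were called against the same IgG and input libraries, so their lists are not independent of these classes, and their counts are given only side by side. Over the whole lists antibody 1 had 54038 peaks against input and 13499 against IgG, and RNA polymerase II 80364 and 50161. In the 9.8-Mb stretch of chromosome 18, antibody 1 had 9867 peaks against input and 99 against IgG, and RNA polymerase II 8791 and 558. In the 0.7-Mb IgG-only stretch of chromosome 2, antibody 1 had 4 against each control, and RNA polymerase II had 8 against input and 24 against IgG. In the IgG-only stretch of chromosome 11 at 113000001, antibody 1 had 2 against input and 8 against IgG, and RNA polymerase II 4 and 6.

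The widest peaks of each class serve as examples. In the IgG list, the widest found against both was on chromosome 18 at 61033303 to 61035278 (1976 bp), inside the 9.8-Mb stretch, and measured 2032 bp against input. A peak of 1665 bp on chromosome 11 (10879117 to 10880781) measured 1612 bp against input, and one of 1491 bp on chromosome 15 (76628890 to 76630380) measured 1934 bp. This input peak of 1934 bp also touched a second IgG peak. The peak on chromosome 15 at 75639038 to 75640602 (1565 bp) had the same ends with both controls. The peak on chromosome 1 at 150336363 to 150337872 (1510 bp) extended to 1931 bp against input, from 150336022 to 150337952, and merged there with a second IgG peak of 130 bp. The widest antibody 2 peak against input was on chromosome 18 at 25755357 to 25757781 (2425 bp), and the IgG list split it into 3 peaks.

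Of the 5 widest input-only peaks, 4 lay in the 9.8-Mb stretch of chromosome 18: 57401497 to 57402773 (1277 bp), 60810224 to 60811333 (1110 bp), 59685340 to 59686380 (1041 bp) and 56939950 to 56940958 (1009 bp). The fifth was on chromosome 1 at 150487435 to 150488377 (943 bp), in the dense stretch there. The nearest peak against IgG was 1016 to 12632 bp away from these 5. The widest IgG-only peak measured 425 bp, on chromosome 20 at 32634916 to 32635340, and the next 423 bp, on chromosome 10 at 19212802 to 19213224. Chromosome 11 held peaks of 411 bp (117066408 to 117066818) and 368 bp (117885168 to 117885535), and chromosome 19 one of 389 bp (1673581 to 1673969). Of these 5, 1 lay in an IgG-only stretch, the 368 bp peak on chromosome 11.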

How the data were processed

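Per the submitters' processing notes, the build was hg19 and the tools were MACS2 2.0.9, SAMtools and Bowtie 0.12.7. Order, settings and duplicate handling are not given in the sources used here. The deposited lists give the chromosome, start and end of each peak and no score, and their names state the control and a q threshold of 0.1. Starts, counted from 0 in the lists, are printed counted from 1. Classes, gaps (from one peak's end to the next start), runs and bins (a peak belongs to the bin of its start) were computed in Python 3.11.15 (SciPy 1.17.1, pandas 2.3.3, NumPy 2.4.6). Class counts and shared bases were checked against bedtools 2.31.1 and on simulated lists with known classes. Figures used matplotlib 3.10.9. Peaks were not assigned to genes and no sequence was read, for want of an hg19 reference here. Named regions are, in place of genes, the 5 widest peaks of each class, the 5 bins of 1 Mb with the largest excess in each direction, and the densest and sparsest chromosomes. The members, classes and alternatives were chosen with earlier results of these data known. Series, stretches and the bins rich in IgG-only peaks were added after the data had been seen.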

Additional observations from a re-analysis of the deposited data

How the results depend on the processing

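Every share printed in this paragraph fell outside the 95% interval of its reported value. Requiring 50% of a peak to be covered gave 93.0% found of the IgG list and 88.9% of the input list, with 94.95% of IgG-only and 84.4% of input-only peaks at the minimum width. Counting a peak within 100 bp as found gave 93.5% and 89.6%, 85.7% of input-only peaks at the minimum width, a neighbour within 1 kb for 35.9% (both controls), 34.9% (IgG only) and 56.7% (input only), and 25.4% of input-only peaks on chromosome 18. When each list kept only peaks of at least 200 bp, a stand-in for the stricter threshold that lists without a score do not allow, 91.5% of the IgG list and 81.4% of the input list were found. Neighbours within 1 kb then fell, by construction, to 7.52%, 6.66% and 27.7%, and the leading chromosomes held 37.7% of input-only peaks (chromosome 18) and 9.93% of IgG-only peaks (chromosome 1). Outside the 18 input-rich bins 91.8% of the input list was found, 94.5% of input-only peaks had the minimum width, 46.2% had a neighbour within 1 kb, and chromosome 3 led with 13.0%. These bins were chosen for their excess of input peaks over IgG peaks, so leaving them out lowers the input-only class by construction. Limiting the lists to chromosomes 1 to 22 and X moved none of the 10 shares out of its interval. With 40% or 60% in place of 50% for stretches, chosen after seeing the data, they held 34.5% or 29.8% of input-only and 3.55% or 1.25% of IgG-only peaks. What caused the remaining shifts was not tested. No paired analysis was possible because each antibody and control has 1 library. Without reads or scores, the evidence behind peaks of minimum width cannot be ranked.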
